A study of Mus musculus with 15 samples.

Results

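Zc3h12a and 5 other genes that hold back NF-kB signalling or its products were followed across 15 arrays of mouse mammary epithelial cells. The other 5 were Zfp36, Nfkbiz, Nfkbia, Tnfaip3 and Ier3. They are 6 of the 12393 genes with a single symbol on the array. All probe sets whose only symbol in the platform annotation is one of these names were taken, which gave 10 of 22690 probe sets: 4 for Nfkbia, 2 for Nfkbiz and 1 for each of the others. The genes were proposed with their values in mice labelled pregnant in view, also in contrasts that hold arrays labelled virgin. Their values in those drug groups are therefore a description, without a p-value, and tests of the 6 genes are given only for other comparisons. These other comparisons share arrays with the contrasts in view, so their tests are not independent of the choice of genes.

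The cells came from digested mammary glands of C57BL/6 females. The mice were labelled virgin (9 weeks old) or pregnant (day 21) and had received an intraperitoneal injection of PBS, of 5-azacytidine (AzaC), which inhibits DNA methylation, or of valproic acid (VPA), which inhibits histone deacetylases. The pregnant label holds 2 PBS, 3 AzaC and 3 VPA arrays, and the virgin label holds 2 PBS, 3 AzaC and 2 VPA arrays. The labels give no dose or schedule, no age for the mice labelled pregnant, and no statement that replicates are separate mice, so p-values measure only the spread between these samples. Values are the deposited signals, taken as log2 from their range because the base is not stated; on that scale a difference of 1 is a doubling.

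The stage labels could not be taken at face value from the transcripts. Csn2, the gene of beta-casein, read at least 13.69 on every array of either label, above 99.7% of genes, and Wap, the gene of whey acidic protein, read at least 13.41. The luminal keratin gene Krt8 read at least 11.1 and the basal keratin gene Krt14 at least 9.68 on all 15 arrays. "Pregnant" and "virgin" below therefore name the labels. Replicate arrays correlated at 0.948 to 0.979 across genes, array medians lay between 7.22 and 7.47, and the difference between 3' and 5' Gapdh control probe sets, a sign of RNA integrity, ranged from -0.17 to 1.23.

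NF-kB is a family of transcription factors that are kept in the cytoplasm by IkB proteins until a kinase complex, switched on by cytokine and Toll-like receptors, marks the IkB protein for destruction. The released factors then switch on inflammatory and survival genes together with their own inhibitors, so that the signal is limited in time. Nfkbia encodes IkB-alpha, the main cytoplasmic inhibitor. Nfkbiz encodes IkB-zeta, a nuclear relative that can raise as well as lower transcription of its targets. Tnfaip3 encodes A20, which edits ubiquitin chains on the signalling complexes upstream of the kinase. Zc3h12a encodes Regnase-1, an endoribonuclease that cuts inflammatory mRNAs, and Zfp36 encodes tristetraprolin, which binds AU-rich mRNAs and recruits the deadenylation machinery. Ier3 is an early response gene tied to cell survival and to control of NF-kB and kinase signalling. All 6 are protein-coding genes, annotated by RefSeq on GRCm38.p6 at chr4:125118414-125127881 (Zc3h12a), chr17:35821713-35822911 (Ier3), chr7:28376784-28379228 (Zfp36), chr12:55489409-55492647 (Nfkbia), chr16:55811375-55838954 (Nfkbiz) and chr10:19000910-19015410 (Tnfaip3). In the mammary gland NF-kB is known for its activity in pregnancy and at the onset of involution.

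The sequences just upstream of the genes were searched for a strict form of the DNA element that NF-kB binds, called a kB site here. The pattern was GGGRNNYYCC, where R is A or G, Y is C or T, and N is any base. RefSeq windows of 250 bases upstream of the start were at hand for 5 of the 6 genes, on build GRCm38.p6, with 2 windows for Tnfaip3. Of all 32851 such windows, 7.25% held a kB site on either strand. A match is a description of letters and not a measurement of binding. Looser forms of the element and sites outside the windows were not searched, so a window without a match does not show that a gene lacks it. The windows of the 2 genes with the largest differences are printed first and those of 2 genes without such a difference follow, 5' to 3' on the strand of the gene, with kB sites in capitals.
Zc3h12a, chr4:125127882-125128131, minus strand: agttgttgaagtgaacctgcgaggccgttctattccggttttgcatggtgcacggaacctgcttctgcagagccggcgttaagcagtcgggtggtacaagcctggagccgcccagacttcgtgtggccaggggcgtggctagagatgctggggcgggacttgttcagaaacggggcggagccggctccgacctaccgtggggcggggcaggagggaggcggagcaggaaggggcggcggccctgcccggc
Ier3, chr17:35821463-35821712, plus strand: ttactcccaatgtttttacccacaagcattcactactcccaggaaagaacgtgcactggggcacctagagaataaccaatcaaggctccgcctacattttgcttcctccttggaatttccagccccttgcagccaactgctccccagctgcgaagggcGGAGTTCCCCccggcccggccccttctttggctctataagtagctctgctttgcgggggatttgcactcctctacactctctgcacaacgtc
Nfkbia, chr12:55492648-55492897, minus strand: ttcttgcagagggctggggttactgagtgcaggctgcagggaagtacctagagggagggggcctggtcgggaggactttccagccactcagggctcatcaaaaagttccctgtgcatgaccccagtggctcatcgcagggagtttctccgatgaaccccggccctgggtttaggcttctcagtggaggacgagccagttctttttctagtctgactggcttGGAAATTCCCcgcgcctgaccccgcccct
Tnfaip3, chr10:19015411-19015660, minus strand: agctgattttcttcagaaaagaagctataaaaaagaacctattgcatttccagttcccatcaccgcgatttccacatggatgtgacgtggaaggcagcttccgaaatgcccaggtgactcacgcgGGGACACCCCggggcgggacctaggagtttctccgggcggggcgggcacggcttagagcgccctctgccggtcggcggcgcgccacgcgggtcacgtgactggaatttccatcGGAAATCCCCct

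The Zc3h12a window held no kB site and no match to the other motifs searched. The Ier3 window held 1 kB site, GGAGTTCCCC at -92 to -83 from the start, which matches on the opposite strand. The Nfkbia window held GGAAATTCCC at -29 to -20, also a match on the opposite strand. The Tnfaip3 window held 2 kB sites, at -125 to -116 and, on the opposite strand, at -12 to -3. A second Tnfaip3 start, with its window at chr10:19011964-19012213, had none, and neither had Zfp36 at chr7:28379229-28379478. The other motifs, searched on both strands, were AP-1 (TGANTCA, in 6.75% of all windows), the core of the cAMP response element (TGACG, 17.8%), the STAT site (TTCNNNGAA, 7.02%) and the serum response CArG box (1.47%). Zfp36 held a CArG box at -58 to -49 and a STAT site at -17 to -9. The upstream Tnfaip3 window held an AP-1 site at -136 to -130 and a cAMP response element core at -168 to -164. No 2 matches overlapped in these windows. CG dinucleotides, the substrate of DNA methylation, numbered 21 in the Zc3h12a window, 8 in that of Ier3, 18 in that of Zfp36, 8 in that of Nfkbia, and 22 and 6 in those of Tnfaip3, against a median of 6 over all windows. Methylation itself was not measured in the files used here.

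Zc3h12a and Ier3 were higher with either drug in mice labelled pregnant, while the mean differences of the other 4 genes lay between -0.69 and 0.18. Zc3h12a read 3.85 and 3.17 on the 2 PBS arrays labelled pregnant, 8.74, 8.07 and 8.28 with AzaC, and 7.97, 8.08 and 8.17 with VPA. The 6 drug arrays lay more than 4 units above both PBS arrays, without overlap. The mean difference was 4.85 ± 0.61 (SE; 95% interval 3.52 to 6.18) for AzaC and 4.56 ± 0.61 (3.23 to 5.89) for VPA, which correspond to 28.9-fold and 23.6-fold. Among 12393 genes these were the 2nd and the 6th largest rises. Both comparisons share the 2 PBS arrays.

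The PBS signal of Zc3h12a was near the bottom of the scale. It stood above 13.7% and 9.47% of the probe sets on the 2 arrays, against 57.0% to 69.4% on the 6 drug arrays. Detection calls were not used here, so whether the PBS values exceed background was not tested. With every value under 5 set to 5, the differences were 3.36 for AzaC and 3.07 for VPA.

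Ier3 read 8.53 and 8.27 with PBS in mice labelled pregnant, 10.77, 9.55 and 10.44 with AzaC, and 10.34, 9.79 and 10.03 with VPA. All 6 drug arrays again lay above both PBS arrays, with AzaC replicate 2 the lowest of them. The difference was 1.85 ± 0.33 (SE; 1.13 to 2.58) for AzaC and 1.65 ± 0.33 (0.93 to 2.38) for VPA, or 3.61-fold and 3.15-fold. It ranked 196th and 291st among rises over all genes.

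**Figure D1:**
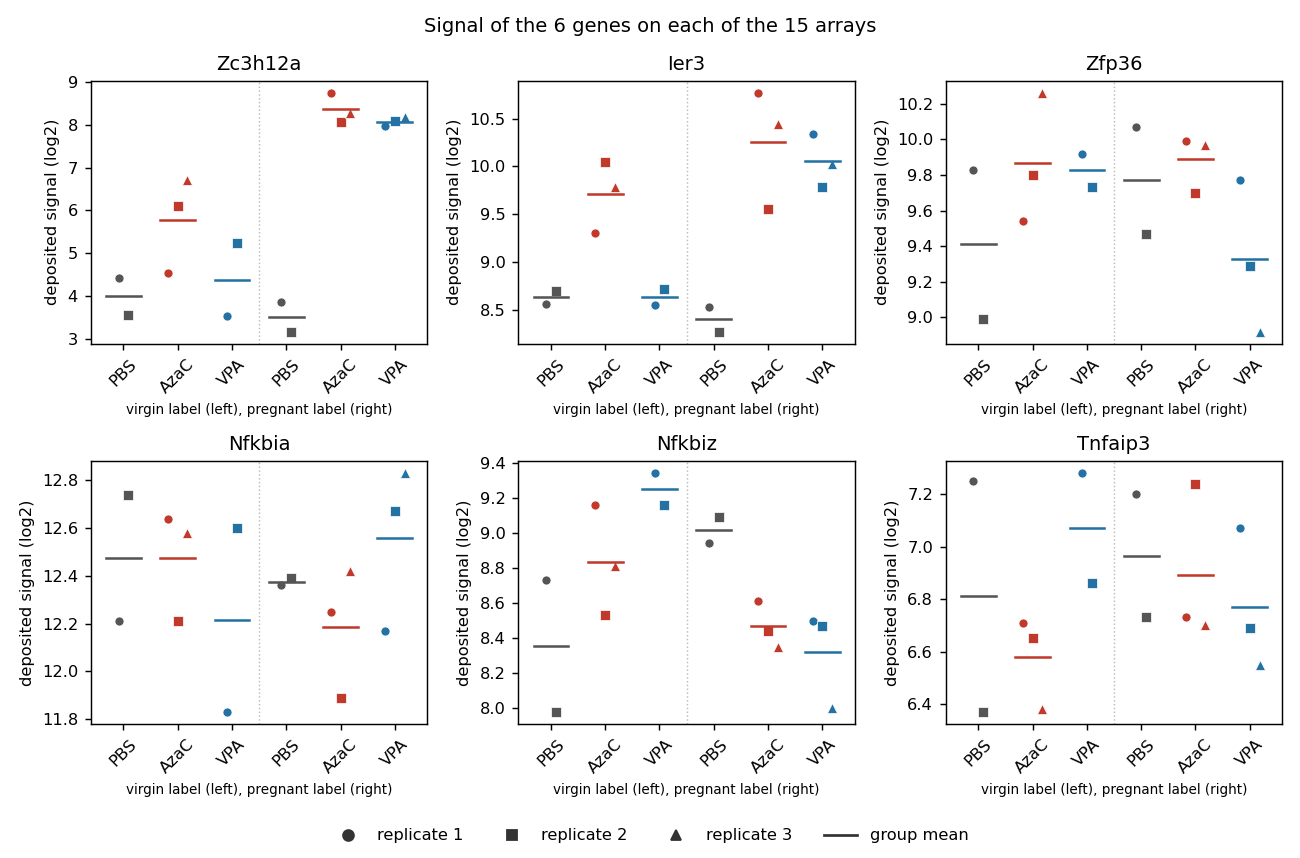
Deposited log2 signal (vertical axes, each with its own range) of the 6 genes on the 15 arrays, grouped by stage label and injection on the horizontal axis; points are arrays, shaped by replicate number, and lines are group means. The 6 drug arrays labelled pregnant lie between 7.97 and 8.74 for Zc3h12a and between 9.55 and 10.77 for Ier3, above all PBS arrays, while the other 4 genes have mean differences between -0.69 and 0.18 under that label.

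Among the 6 genes, 2 passed an adjusted p of 0.05 upward with AzaC and 2 with VPA in mice labelled pregnant, where 3.76% and 3.64% of all genes did. Groups without overlap, drug above PBS, were seen for 2 of the 6 with each drug, against 23.5% of all genes for AzaC and 25.7% for VPA, so lack of overlap was common on these arrays. These contrasts were in view when the genes were chosen, and nothing is read from these counts. The median difference over the 6 genes was 0.02 for AzaC and -0.01 for VPA, beside 0.04 and 0.06 over all genes. The counts leaned on single arrays, although the differences did not turn. Without pregnant PBS replicate 1, Zc3h12a alone passed for either drug, and without pregnant PBS replicate 2 none of the 6 did, with Zc3h12a still 4.51 and 4.22 higher. Leaving out pregnant AzaC replicate 3, or pregnant VPA replicate 1 or 3, left 1 gene passing in the comparison concerned. Fitted on the AzaC and PBS arrays labelled pregnant alone, none passed for AzaC, and neither did any other gene.

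Zfp36, the second RNA decay factor, gave small differences. It read 10.07 and 9.47 with PBS in mice labelled pregnant, 9.99, 9.70 and 9.97 with AzaC, and 9.77, 9.29 and 8.92 with VPA. AzaC and PBS values were interleaved, and the VPA values reached lower without separating. The mean differences were 0.12 ± 0.32 (SE) for AzaC and -0.44 ± 0.32 (SE) for VPA.

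Nfkbia read between 11.83 and 12.83 on all 15 arrays with its brightest probe set. In mice labelled pregnant it read 12.36 and 12.39 with PBS, 12.25, 11.89 and 12.42 with AzaC, and 12.17, 12.67 and 12.83 with VPA. Both drug groups spanned the PBS values, and the mean differences were -0.19 ± 0.29 (SE) and 0.18 ± 0.29 (SE). The 3 other Nfkbia probe sets gave differences between -0.37 and -0.255 for AzaC and between -0.15 and 0.295 for VPA, so the sign differed between probe sets for VPA. Of the 3, 1 had all AzaC arrays below both PBS arrays, as for 20.9% of all genes, at a difference of -0.26. None of the 4 passed the threshold in a fit of all 22690 probe sets, of which 5.68% passed for AzaC and 3.79% for VPA.

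Nfkbiz was lower with either drug in mice labelled pregnant. Its brighter probe set read 8.94 and 9.09 with PBS, 8.61, 8.44 and 8.35 with AzaC, and 8.5, 8.47 and 8.0 with VPA. Every drug array lay below both PBS arrays, which also held for 20.9% of all genes with AzaC and 17.6% with VPA. The differences were -0.55 ± 0.26 (SE) and -0.69 ± 0.26 (SE). The second probe set differed by -0.105 for AzaC, with groups that overlapped, and by -0.565 for VPA, where the VPA values of 8.66, 8.24 and 7.67 lay under the PBS values of 8.72 and 8.79.

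Tnfaip3 stayed between 6.37 and 7.28 on all 15 arrays. In mice labelled pregnant it read 7.20 and 6.73 with PBS, 6.73, 7.24 and 6.70 with AzaC, and 7.07, 6.69 and 6.55 with VPA. The groups overlapped, and the differences were -0.075 ± 0.29 (SE) and -0.195 ± 0.29 (SE). The 95% intervals ran from -0.72 to 0.57 for AzaC and from -0.84 to 0.45 for VPA.

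**Figure D2:**
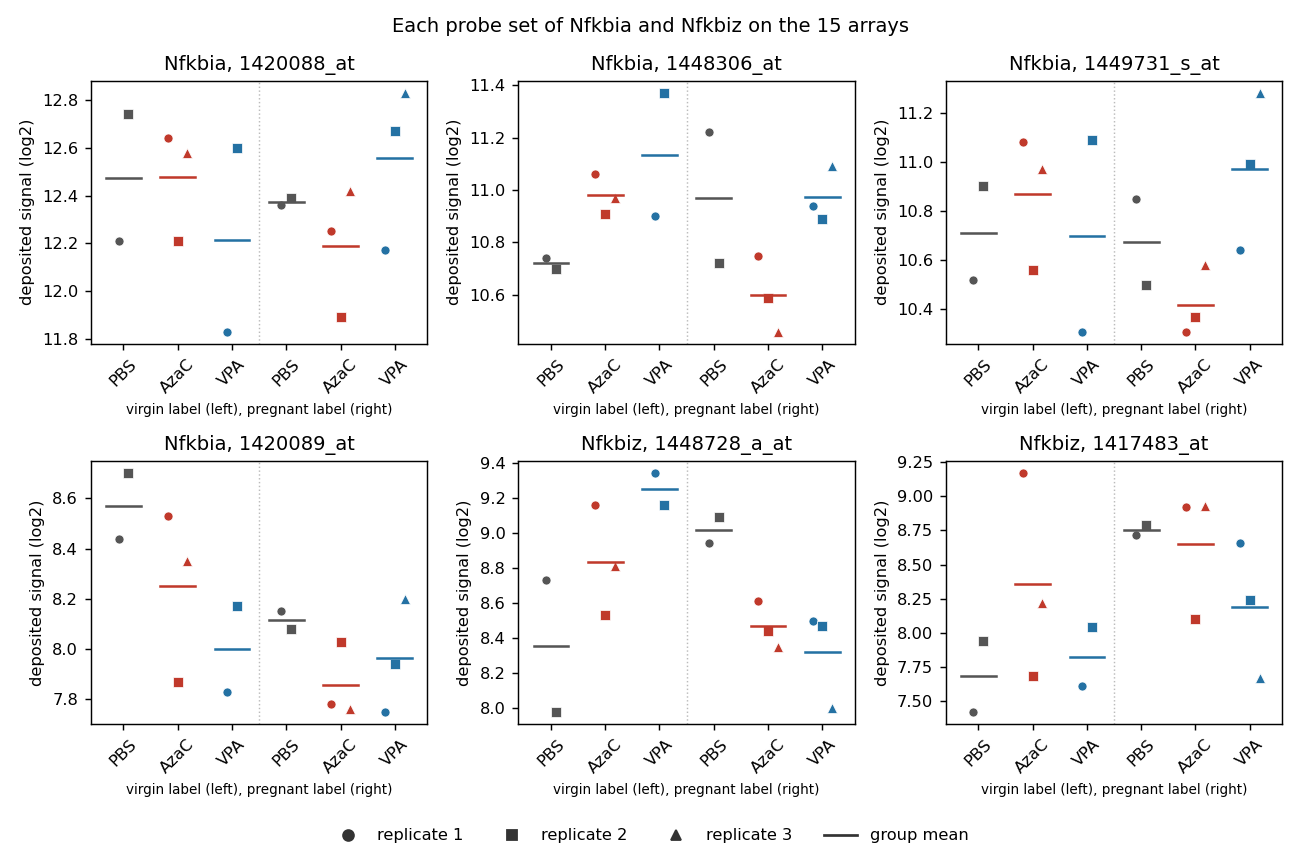
Deposited log2 signal (vertical axes, each with its own range) of the 4 Nfkbia and 2 Nfkbiz probe sets on the 15 arrays, grouped by stage label and injection; points are arrays and lines are group means. For Nfkbiz both probe sets have all VPA arrays below the PBS arrays under the pregnant label, while for AzaC the second probe set overlaps with PBS.

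The drug contrasts with the virgin label were not themselves in view, although their arrays entered contrasts that were. None of the 6 genes passed the threshold there with limma for AzaC (0% of all genes passed) or for VPA (0.00807% of all genes, which is 1 gene). At an unadjusted p under 0.05 there were 2 of the 6 for AzaC, beside 6.85% of all genes, and 1 for VPA, beside 6.87%. Zc3h12a read 4.43 and 3.56 with PBS, 4.53, 6.09 and 6.70 with AzaC, and 3.53 and 5.23 with VPA. All 3 AzaC arrays lay above both PBS arrays, replicate 1 by a small margin, and the VPA arrays fell on either side of PBS. The difference was 1.78 ± 0.61 (SE; 0.45 to 3.11; limma adjusted p = 0.704) for AzaC and 0.385 ± 0.66 (SE; -1.07 to 1.84; limma adjusted p = 0.933) for VPA. The first adjusted p lay between 0.138, without virgin AzaC replicate 1, where the difference was 2.40, and 1 over the alternatives run.

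Ier3 showed the same order with AzaC under the virgin label. It read 8.56 and 8.70 with PBS, 9.30, 10.05 and 9.79 with AzaC, and 8.55 and 8.72 with VPA. The AzaC arrays lay above PBS and the VPA arrays lay at the PBS level. The difference was 1.08 ± 0.33 (SE; 0.36 to 1.81; limma adjusted p = 0.632) for AzaC and 0.005 ± 0.36 (SE; -0.79 to 0.80; limma adjusted p = 1) for VPA. For AzaC against PBS, 2 of the 6 genes, Zc3h12a and Ier3, were higher without overlap, beside 11.5% of all genes.

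The other 4 genes gave smaller differences with AzaC under the virgin label, from -0.23 for Tnfaip3 to 0.48 for Nfkbiz, with limma adjusted p between 0.714 and 1. For VPA, Nfkbiz stood out among them. It read 8.73 and 7.98 with PBS, 9.16, 8.53 and 8.81 with AzaC, and 9.34 and 9.16 with VPA. The 2 VPA arrays lay above both PBS arrays, as they did for 20.8% of all genes, and the difference was 0.895 ± 0.28 (SE; 0.28 to 1.51; limma adjusted p = 0.592). It was 0.52 without virgin PBS replicate 2, the array with the highest Gapdh 3' to 5' difference (1.23), 1.27 without virgin PBS replicate 1, and 0.73 with the Gapdh difference as a covariate. The second Nfkbiz probe set differed by 0.145 with overlapping groups. Zfp36 read 9.83 and 8.99 with PBS and 9.92 and 9.73 with VPA, a difference of 0.415 (limma adjusted p = 0.835). Nfkbia differed by -0.26 and Tnfaip3 by 0.26. The Nfkbia probe sets differed in sign here. Of them, 1 had both VPA arrays above PBS, at 0.415 (limma adjusted p = 0.782 among probe sets). Another had both below, at -0.57 (-1.11 to -0.03, limma adjusted p = 0.755). The share of all probe sets without overlap is not given, so nothing is read from this. In the fit of all probe sets, 0.00441% passed for AzaC and 0.0176% for VPA with the virgin label, none of them among the 10. Over the 6 genes the median difference was 0.47 for AzaC and 0.32 for VPA, beside 0.06 and 0.045 over all genes.

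**Figure D3:**
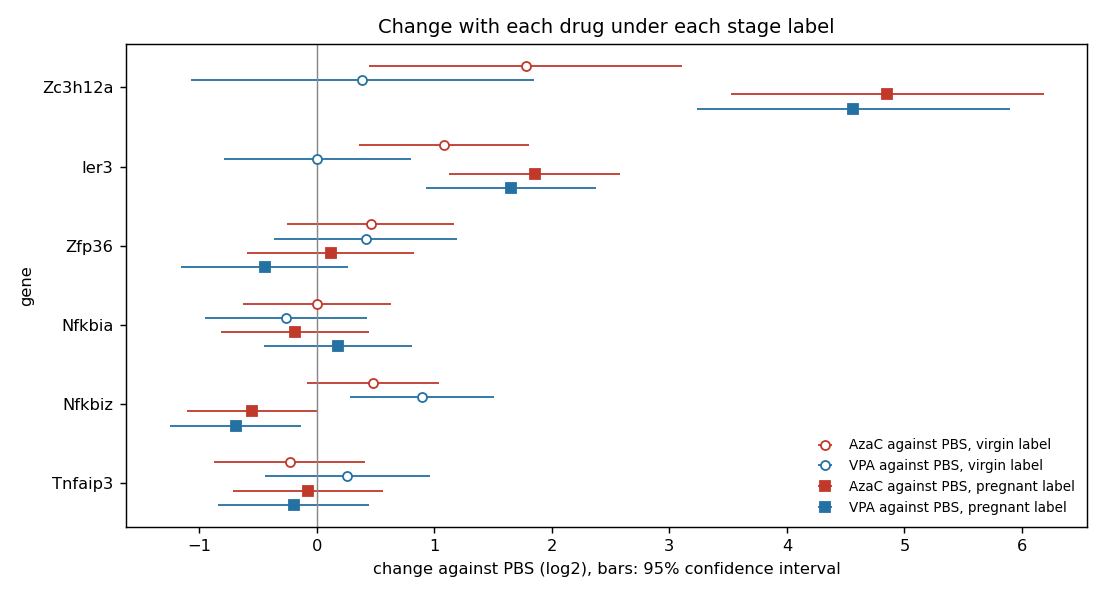
Difference from PBS in log2 units (horizontal axis) for each of the 6 genes (vertical axis) with AzaC (red) and VPA (blue) under the virgin (open circles) and pregnant (filled squares) labels; bars are 95% confidence intervals from limma. Values under the pregnant label were in view at the choice of genes and are shown as a description. Under it Zc3h12a lies at 4.85 and 4.56 and Ier3 at 1.85 and 1.65. With VPA the differences of Nfkbiz, Zfp36, Nfkbia and Tnfaip3 each have opposite signs under the 2 labels.

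Without a drug, the comparison under PBS asks whether the genes differed between the stage labels. No age is given for the pregnant label, so reproductive state and age cannot be told apart here. Of the 6, none passed the threshold with limma between pregnant and virgin under PBS, where 0.00807% of all genes did, and 1 had an unadjusted p under 0.05, beside 4.2% of all genes. That gene was Nfkbiz, 0.66 ± 0.28 higher with the pregnant label (SE; 0.05 to 1.27; limma adjusted p = 1). The difference was 0.285 without virgin PBS replicate 2 and 1.035 without virgin PBS replicate 1. Its 2 arrays labelled pregnant lay above both labelled virgin, as for 15% of all genes, and the second probe set did the same, with a difference of 1.075. Zc3h12a differed by -0.485 (-1.94 to 0.97; limma adjusted p = 1) with overlapping values. Ier3 differed by -0.23, its arrays labelled pregnant lying below those labelled virgin without overlap, as for 13.4% of all genes.

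Between the stage labels under a drug, differences were in view at the choice of genes and are described. Zc3h12a was 2.59 ± 0.54 (SE) higher with the pregnant label under AzaC and 3.69 ± 0.61 (SE) higher under VPA. Ier3 was 0.54 ± 0.30 (SE) and 1.42 ± 0.33 (SE) higher, and its AzaC values overlapped between the labels. Under AzaC 1 of the 6 genes, Zc3h12a, passed upward, beside 0.121% of all genes, and its labels did not overlap, as for 8.81% of all genes. None passed without pregnant AzaC replicate 1 or 3 or any of the virgin AzaC replicates 1, 2 and 3. Under VPA 2 of the 6 passed, Zc3h12a and Ier3, beside 3.7% of all genes, both without overlap, as for 26.2% of all genes. None passed without virgin VPA replicate 1, and 1 passed without virgin VPA replicate 2 or pregnant VPA replicate 1, 2 or 3. Nfkbiz differed by -0.93 ± 0.26 (SE) under VPA, with all arrays labelled pregnant below those labelled virgin, as for 19.8% of all genes. Its second probe set had the opposite sign there, at 0.365, with overlapping labels.

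The size of the drug difference itself was compared between labels as a difference of differences. For Zc3h12a it was 3.075 ± 0.86 (SE) for AzaC and 4.18 ± 0.90 (SE) for VPA, larger with the pregnant label. For Ier3 it was 0.77 ± 0.47 (SE) and 1.65 ± 0.49 (SE). None of the 6 passed the threshold in limma for AzaC (0% of all genes, 2 of the 6 at an unadjusted p under 0.05 beside 12.8% of all genes) or for VPA (0.315% of all genes, 3 of the 6 at an unadjusted p under 0.05 beside 18.9%). For VPA, 2 of the 6 passed with trend and robust settings and 1 with a floor at 5. These contrasts too were in view when the genes were chosen, so the counts are a description and nothing is read from them.

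Ordered by group mean, Zc3h12a ran from pregnant AzaC at 8.36 ± 0.34 (SD, n = 3) and pregnant VPA at 8.07 ± 0.10 (SD, n = 3), through virgin AzaC at 5.77 ± 1.12 (SD, n = 3) and virgin VPA at 4.38 ± 1.20 (SD, n = 2), to virgin PBS at 3.995 ± 0.62 (SD, n = 2) and pregnant PBS at 3.51 ± 0.48 (SD, n = 2). Pregnant VPA and virgin AzaC were the sole neighbours in this order whose arrays did not overlap. The group means of Ier3 ran in the same order, with virgin VPA at 8.635 and virgin PBS at 8.63. Its 3 highest groups overlapped with each other, and a gap lay between the lowest virgin AzaC array at 9.30 and the highest virgin VPA array at 8.72.

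AzaC and VPA were compared directly to ask whether a gene responded more to one drug. In mice labelled pregnant none of the 6 passed in limma (0% of all genes), and none had an unadjusted p under 0.05, beside 3.78% of all genes. With the brightest probe set of each gene, none of the 6 had groups without overlap, beside 2.52% of all genes with AzaC above and 5.54% with AzaC below. Zc3h12a was 0.29 higher with AzaC (-0.90 to 1.48; limma adjusted p = 1) and Ier3 0.20 higher (-0.45 to 0.85; limma adjusted p = 1), intervals that leave room for a difference of more than 1 unit for Zc3h12a. The largest difference on these probe sets was that of Zfp36, 0.56 higher with AzaC (-0.07 to 1.19; limma adjusted p = 1). Of the other Nfkbia probe sets, 2 had all AzaC arrays below all VPA arrays, with differences of -0.37 and -0.55 (limma adjusted p = 1 for both among all probe sets). With the virgin label none passed either (0% of all genes), and 2 had an unadjusted p under 0.05, beside 6.56% of all genes. These were Zc3h12a, 1.39 higher with AzaC (0.06 to 2.72; limma adjusted p = 0.745; groups overlapped; 0.54 without virgin VPA replicate 1 and 2.24 without replicate 2), and Ier3, 1.08 higher (0.35 to 1.80; limma adjusted p = 0.695; no overlap, as for 13.1% of all genes). Tnfaip3 was 0.49 lower with AzaC, without overlap, as for 13.7% of all genes (limma adjusted p = 0.779).

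Zc3h12a stood closer to genes outside the group than to the other 5. Likeness was measured as the root mean square difference between profiles over the 15 arrays after subtracting each gene's mean, as a description. The 5 closest genes were taken after clone and predicted names were left out. Nfe2l3, a CNC-family transcription factor, lay at 0.62, Zfp704, a zinc finger protein, at 0.69, and Slc5a8, a monocarboxylate transporter, at 0.70. Plscr2, a phospholipid scramblase, lay at 0.70, and Socs3, a feedback inhibitor of cytokine receptor signalling, at 0.71. Nfe2l3 averaged 6.315 with PBS, 10.57 with AzaC and 10.92 with VPA under the pregnant label, and 7.18, 8.46 and 7.02 under the virgin label. Socs3 averaged 6.655, 10.27 and 10.32 under the pregnant label, and 6.905, 8.61 and 7.46 under the virgin label. Ier3 was the closest of the 5 other genes, at 1.33 and rank 151 of 12392, a ranking that counts clone and predicted names. Nfkbia, Zfp36, Tnfaip3 and Nfkbiz lay at 2.02 to 2.24, at ranks 6189 to 10194. Nfkbiz was the most distant of the 5.

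The rest of the pathway was read from 9 lists that hold NF-kB subunits, other IkB proteins, kinases and adaptors, receptors and ligands, ubiquitin editors, mRNA decay factors, mRNA targets of Zc3h12a and of Zfp36, and NF-kB target genes. These and the later lists were chosen with earlier results of these data known. Their rates and p-values are therefore a description and not independent support for a change of the pathway. Of 106 measured genes, 9 rose and 1 fell with AzaC in mice labelled pregnant, and 8 rose and 1 fell with VPA. This is 8.49% and 7.55% rising, beside 3.76% and 3.64% of all genes (3.81% and 2.34% fell), and the median differences were 0.21 and 0.14 beside 0.04 and 0.06. All of these calls rest on both PBS arrays labelled pregnant: without either of them, 0 of the 106 passed for either drug. Leaving out pregnant AzaC replicate 1 or 3 left 2 calls for AzaC, and leaving out pregnant VPA replicate 1 or 2 left 0 and 2 for VPA. Without pregnant VPA replicate 3 the sole gene to pass was Tlr4, which did not pass on all arrays, so none of the VPA calls held. Fitted on the compared arrays alone, none of the calls named below held for AzaC, and for VPA those of Myd88, Tnip1, Lif and Sele did not. With the virgin label 0 of 106 passed with limma for either drug. There 12 for AzaC and 6 for VPA had an unadjusted p under 0.05, beside 6.85% and 6.87% of all genes. That share is not given for the pregnant label, so nothing is read from the unadjusted counts of lists under it.

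Among the DNA-binding subunits, 2 of 4 measured rose with each drug in mice labelled pregnant. Relb, a subunit of the alternative NF-kB pathway, averaged 4.415 ± 0.80 with PBS (SD, n = 2), 7.22 ± 0.08 after AzaC (SD, n = 3) and 7.37 ± 0.35 after VPA (SD, n = 3, limma adjusted p = 0.0218 and 0.0215). Its PBS mean was near the bottom of the scale. Rela, the main activating subunit, went from 9.52 ± 0.03 (SD, n = 2) to 10.81 ± 0.15 (SD, n = 3) and 10.78 ± 0.23 (SD, n = 3) (limma adjusted p = 0.0159 and 0.0202). Rel and Nfkb2 did not pass for either drug. Of the other IkB proteins 0 of 4 passed with limma, with 1 and 2 at an unadjusted p under 0.05. The largest difference there was that of Bcl3, a nuclear IkB protein, at 1.00 for AzaC and 1.06 for VPA (limma adjusted p = 0.119 and 0.114).

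Upstream of IkB, 1 of 21 kinases and adaptors rose with AzaC and 2 with VPA. Map3k8, the kinase Tpl2 that feeds inflammatory signals into the ERK pathway, rose by 3.45 ± 0.59 (SE, limma adjusted p = 0.0121) with AzaC and by 2.76 ± 0.59 (SE, limma adjusted p = 0.0263) with VPA. Its PBS mean was 4.13, near the bottom of the scale, and whether that exceeds background was not tested. Myd88, the adaptor of Toll-like and interleukin-1 receptors, rose by 0.82 ± 0.20 (SE, limma adjusted p = 0.0365) with VPA. None of the 23 receptors and ligands passed with limma for either drug, with 4 for AzaC and 5 for VPA at an unadjusted p under 0.05. Of 12 ubiquitin editors, the A20-binding protein gene Tnip1 alone passed, at 0.685 ± 0.19 (SE, limma adjusted p = 0.0473) for AzaC and 0.705 ± 0.19 (SE, limma adjusted p = 0.0484) for VPA. After quantile normalization neither Tnip1 call held (limma adjusted p = 0.0501 and 0.0842). Tnfaip3, whose product it binds, gave -0.075 and -0.195 on the same arrays, and the difference between these genes was not tested.

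Among relatives of the decay factors, Zfp36l1, which binds AU-rich mRNAs like Zfp36, rose by 1.36 ± 0.33 (SE, limma adjusted p = 0.0309) with AzaC and was 1.11 higher with VPA (limma adjusted p = 0.0676). Its relative Zfp36l2 was 2.305 higher with AzaC (limma adjusted p = 0.0809) and 2.015 with VPA (limma adjusted p = 0.127). In all, 1 of 10 passed for AzaC and 0 for VPA, with 3 and 2 at an unadjusted p under 0.05.

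The mRNAs that Zc3h12a is known to cut went in both directions. Of 11 measured, 1 rose and 1 fell with AzaC, and 0 rose and 1 fell with VPA, and the median differences were -0.465 and -0.59. Tfrc, the transferrin receptor gene, fell by 1.93 ± 0.38 (SE, limma adjusted p = 0.0177) with AzaC and by 1.66 ± 0.38 (SE, limma adjusted p = 0.0315) with VPA, from 13.11 on both PBS arrays, and with the mean of its probe sets the VPA call did not hold (limma adjusted p = 0.0772). Cxcl1, a neutrophil-attracting chemokine gene, rose by 2.085 ± 0.55 (SE, limma adjusted p = 0.0431) with AzaC and was 1.18 higher with VPA (limma adjusted p = 0.213). Its PBS mean was 4.175, near the bottom of the scale. Il6, the best-known target, differed by -0.465 with AzaC and -1.345 with VPA (limma adjusted p = 0.814 and 0.435). Among 13 targets of Zfp36, 2 rose with AzaC (Cxcl1 and the cytokine gene Lif) and 1 with VPA (Lif). Lif, read with its brightest probe set, was 2.09 ± 0.40 (SE, limma adjusted p = 0.0171) and 1.79 ± 0.40 (SE, limma adjusted p = 0.0304) higher, and with the mean of its probe sets 0.70 and 0.84 higher without passing (limma adjusted p = 0.208 and 0.143). With a floor at 5 its VPA difference did not pass (limma adjusted p = 0.0526). Tnf, the target through which Zfp36 is best known, differed by 0.295 and 0.10 (limma adjusted p = 0.513 and 0.853).

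Of 30 NF-kB target genes outside the 6, 5 rose with AzaC and 4 with VPA and 0 fell, with median differences of 0.42 and 0.32. They include Relb, Tnip1 and, for AzaC, Cxcl1. Sele, the endothelial adhesion molecule E-selectin, went from 4.555 ± 0.60 (SD, n = 2) with PBS to 6.48 ± 0.17 (SD, n = 3) and 6.15 ± 0.15 (SD, n = 3) (limma adjusted p = 0.0171 and 0.0338). Its PBS mean, like that of Relb, was near the bottom of the scale. Gadd45b, a stress response gene, went from 6.93 ± 0.16 (SD, n = 2) to 8.41 ± 0.45 (SD, n = 3) and 8.49 ± 0.25 (SD, n = 3) (limma adjusted p = 0.0262 and 0.0255). Icam1 differed by 0.87 and 0.98, Vcam1 by 0.09 and 0.07, and Il1b by -0.49 and -0.65, none past the threshold.

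**Figure D4:**
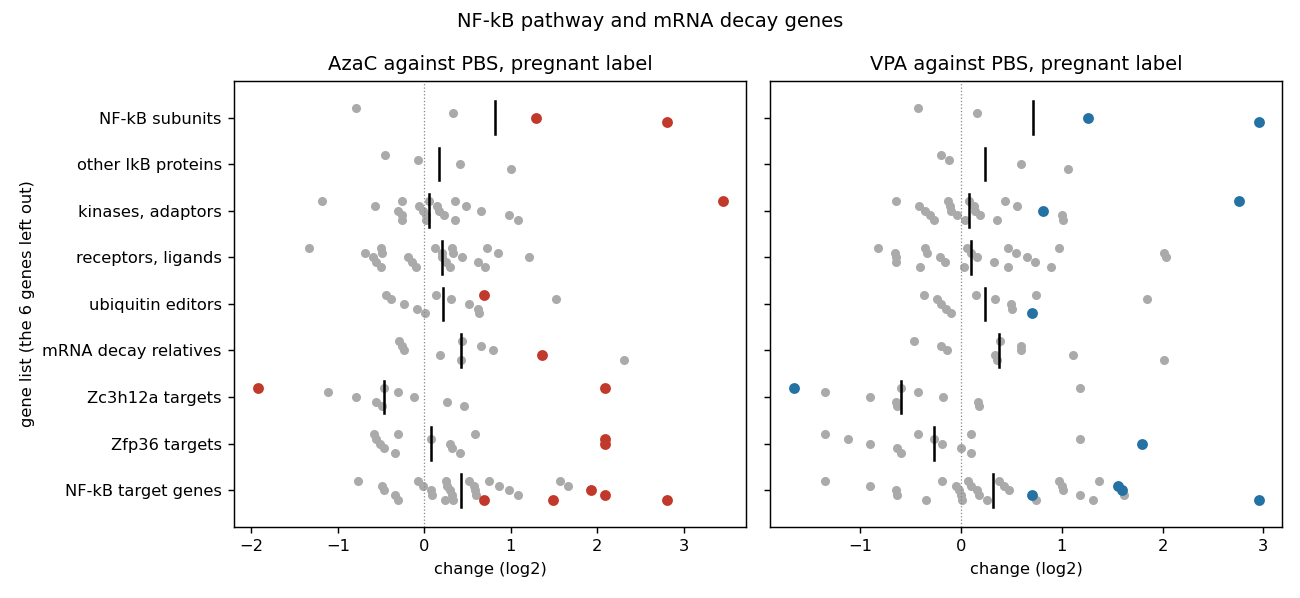
Difference from PBS in log2 units (horizontal axes) of each measured gene in the 9 pathway lists (vertical axis) for AzaC (left) and VPA (right) under the pregnant label; coloured points passed an adjusted p of 0.05 in limma, grey points did not, and black bars are list medians. The coloured points lie to the right of 0 except Tfrc, at -1.93 for AzaC and -1.66 for VPA, in the list of Zc3h12a targets.

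Other gene groups moved on the same arrays as Zc3h12a and Ier3. Beside the counts given here, 3.76% of all genes rose with AzaC and 3.64% with VPA under the pregnant label. Summed on the linear scale and given as log2, 24 immediate early genes, which cells also switch on while tissue is digested, lay at 13.85 to 13.92 with PBS, 14.51 to 14.94 with AzaC and 14.56 to 14.76 with VPA in mice labelled pregnant. Of them 8 rose with AzaC and 5 with VPA, among them Junb by 2.49 and 2.485, and without either PBS array Socs3 alone passed for each drug. The sum of 10 luminal epithelial markers lay at 14.95 to 14.99, 15.57 to 15.87 and 15.67 to 15.87, and 1 and 3 of them rose. Kit differed the most, by 4.14 and 3.80. The 10 markers ran from -0.26 to 4.14 for AzaC and from -0.02 to 3.80 for VPA, with medians of 1.12 and 1.13. The 24 immediate early genes ran from -0.35 to 3.62 for AzaC and from -0.37 to 3.66 for VPA. A linear sum weighs bright genes most, so these sums are not read as levels of cells or of a response. Without either PBS array 0 of the luminal markers passed for either drug, and likewise without AzaC replicate 1 or 3 for AzaC and without any single VPA replicate for VPA. On the virgin AzaC arrays, where Zc3h12a read 4.53, 6.09 and 6.70, the immediate early sum was 13.90, 14.39 and 14.49 and the luminal sum 14.95, 15.60 and 15.65, replicate 1 being the lowest for each. With the virgin label and PBS these sums were 13.87 to 13.98 and 15 to 15.06. In bulk samples, fewer cells of a type and less RNA per cell cannot be told apart. The part of these groups in the result was not tested.

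Markers of other cell types were read on the same arrays. Beside their counts, 3.76% of all genes rose with AzaC and 3.64% with VPA when the label was pregnant. The share of all genes at an unadjusted p under 0.05 is not given for that label, so nothing is read from those counts. Under the pregnant label the summed level of 12 macrophage markers was 12.45 to 12.7 with PBS, 12.9 to 13.1 with AzaC and 13.11 to 13.34 with VPA, and 0 of the 12 passed with limma (3 and 6 at an unadjusted p under 0.05). The sum of 10 endothelial markers was 10.99 to 11.68, 11.88 to 12.45 and 11.64 to 12.38, with 1 of 10 past the threshold for each drug, Cldn5. That of 9 fibroblast markers was 13.37 to 13.54, 13.74 to 14.51 and 13.91 to 14.90, with 0 and 1 past it. That of 11 neutrophil markers was 13.42 to 13.96, 13.93 to 14.16 and 13.73 to 14.10, with 1 past it for each drug, Mmp9, and Camp at 0 on all VPA arrays. Mmp9 averaged 4.325 with PBS, 5.10 with AzaC and 5.39 with VPA, far below that sum. Brighter members of the list carry the sum, so it is not read as a level of neutrophils. The other sums weigh bright genes most in the same way and are not read as levels of cells either. The calls of Cldn5, Mmp9 and the fibroblast gene Dcn were lost without either PBS array. For AzaC, Cldn5 also did not pass without replicate 1 or 3, nor Mmp9 with any single AzaC replicate left out. For VPA none of these genes passed without replicate 1, Dcn did not pass without replicate 2 or 3, and Cldn5 did not pass without replicate 3. Of 10 lymphocyte, 9 basal and 6 adipocyte markers 0 passed with limma for either drug (0, 0 and 1 for AzaC and 1, 1 and 1 for VPA at an unadjusted p under 0.05), and Cd3d was at 0 on all AzaC arrays. The summed ranges with PBS, AzaC and VPA were 9.61 to 9.63, 9.25 to 9.55 and 9.09 to 10 for lymphocytes, 14.2 to 14.23, 14.24 to 14.3 and 14.25 to 14.55 for basal cells, and 12.97 to 13.2, 13.21 to 13.71 and 13.54 to 13.6 for adipocytes. The part of these cells in the values of the 6 genes was not tested.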

How the data were processed

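Messenger RNA of the isolated cells was turned into biotinylated cRNA and hybridised to Affymetrix arrays, per the labels' protocols. The authors deposited 1 table of processed signals, taken here as log2 from its range; the base, summary, background correction and normalization are not given in the sources used here. Values were used as deposited. Of the probe sets, 20380 carry a single symbol in the platform annotation; each of the 12393 genes was represented by its probe set with the highest mean. A group means model over all 15 arrays was fitted with limma 3.58.1 in R 4.3.3 (lmFit, eBayes; 9 residual and 2.31 prior degrees of freedom), two-sided, with Benjamini-Hochberg adjustment over all genes and a threshold of 0.05; single probe sets were fitted over all 22690. The number of arrays limits the precision. The fit was tested on simulated data. The 6 genes and all gene lists were chosen with earlier results of these data known.

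The 6 genes are named in every comparison, with the 5 genes, clone and predicted names left out, whose profile was closest to that of Zc3h12a. From each list, up to 4 genes past the threshold with the largest change, or else the 2 with the smallest p, were eligible to be named in each drug comparison. Il6, Tnf, Icam1, Vcam1, Il1b, Rel, Nfkb2, Spry1, Spry2, Spry4, Cish and the milk and keratin genes were added after their values were seen. Figures were drawn with matplotlib 3.10.9. Each choice was changed singly: between-array quantile normalization, a filter on low means, averaging a gene's probe sets, trended and robust shrinkage, a fit restricted to the arrays under comparison, a block for the replicate number, a floor at 5, a Gapdh covariate, a minimum change of 1.5-fold, and omission of each array.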

Additional observations from a re-analysis of the deposited data

Results flagged for a closer look

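Nfkbiz differed in opposite directions with VPA under the 2 stage labels. Both VPA arrays lay above both PBS arrays with the virgin label, as for 20.8% of all genes (difference 0.895, limma adjusted p = 0.592). All 3 VPA arrays lay below both PBS arrays with the pregnant label, as for 17.6% of all genes. The difference between the VPA effects was -1.59. It was in view when the gene was chosen and is given without a p. The second Nfkbiz probe set had the same sign under each label, at 0.145 and -0.565, with overlapping groups under the virgin label. Without virgin PBS replicate 2 the difference between the effects was -1.21, and without virgin PBS replicate 1 it was -1.96. Zfp36, Nfkbia and Tnfaip3 also had VPA differences of opposite sign under the 2 labels, smaller than those of Nfkbiz.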

How the results depend on the processing

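Of the counts of the 6 genes past the threshold, those for either drug with the virgin label, for the stage labels under PBS, for AzaC against VPA under either label and for the difference of the AzaC effects were 0 under every alternative run. For AzaC against PBS with the pregnant label the count of 2 became 1 without genes whose mean is under 6.098, a filter that removes Zc3h12a itself, 0 with only the arrays compared, and 0 to 2 with single arrays left out. For VPA it became 1 with that filter and 0 to 2 with single arrays left out. For the stage labels under AzaC the count of 1 became 0 after quantile normalization, with that filter and with only the arrays compared, and 0 to 1 with single arrays left out; under VPA the 2 became 0 to 2 with single arrays left out and 3 after quantile normalization, with trend and robust settings and with the Gapdh covariate. For the difference of the VPA effects the count of 0 became 1 with the filter, 2 with trend and robust settings and 1 with a floor at 5. Apart from the filter and left-out arrays, the cause was not tested.

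Replicate numbers did not pair the arrays: deviations of same-numbered arrays correlated at -0.17 to 0.33 over 33 pairs, with 6 over 0.1. With the number as a block the counts became 1 for VPA with the pregnant label, 0 for the stage labels under AzaC and 1 under VPA, and 2 stayed for AzaC with the pregnant label. With the block Tnfaip3 was 0.0267 for AzaC with the pregnant label and Nfkbia -0.10 for AzaC with the virgin label, both with the sign turned.

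Signs also turned for small differences that were never past the threshold. After quantile normalization Nfkbia was -0.15 for AzaC and Ier3 -0.0625 for VPA with the virgin label, and with the Gapdh covariate Tnfaip3 was -0.0303 for VPA with the virgin label. With single arrays left out under the pregnant label, Tnfaip3 ranged from -0.31 to 0.16 for AzaC and from -0.43 to 0.04 for VPA, and Zfp36 from -0.18 to 0.42 for AzaC. Under the virgin label, AzaC gave -0.26 to 0.27 for Nfkbia and -0.67 to 0.21 for Tnfaip3. VPA gave there -0.465 to 1.235 for Zc3h12a, -0.08 to 0.09 for Ier3, -0.005 to 0.835 for Zfp36, -0.645 to 0.125 for Nfkbia and -0.18 to 0.70 for Tnfaip3.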

Other observations

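Feedback inhibitors of other signalling pathways were read beside the NF-kB genes, from a list of 16 measured genes. In mice labelled pregnant 2 of 16 rose with AzaC and 1 with VPA, beside 3.76% and 3.64% of all genes, and 0 of the 16 fell. Socs3, which blocks JAK kinases downstream of cytokine receptors, rose by 3.62 ± 0.29 (SE, limma adjusted p = 0.000683) with AzaC and by 3.66 ± 0.29 (SE, limma adjusted p = 0.000602) with VPA. It was the 1 gene of this list that passed for both drugs without either PBS array. Dusp1, a phosphatase that switches off stress kinases, rose by 1.57 ± 0.37 (SE, limma adjusted p = 0.0299) with AzaC and was 1.38 higher with VPA (limma adjusted p = 0.0511). Omitting either PBS array, or AzaC replicate 1 or 3, ended the Dusp1 call. The Sprouty genes Spry1, Spry2 and Spry4, which restrain receptor tyrosine kinases, and the STAT5-induced inhibitor Cish did not pass for either drug. The median difference over the list was 0.385 for AzaC and 0.35 for VPA, beside 0.04 and 0.06 over all genes. With the virgin label 0 of 16 passed with limma for either drug. At an unadjusted p under 0.05 there were 2 for AzaC and 0 for VPA, beside 6.85% and 6.87% of all genes. Socs3 was 1.71 higher with AzaC under that label (limma adjusted p = 0.221).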
